A study of Mus musculus with 3 samples.

Results

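The C-type lectin receptors of myeloid cells recognize sugars and lipids of microbes and debris of dying cells through a lectin-type domain. The group described here held 7 such genes, matched by symbol in the annotation of the array: Clec4d, Clec4e, Clec4n, Clec4a2, Clec4a3, Clec5a and Clec12a. These are 7 of the 19057 genes that the annotation names, and 13 probes represented them. A probe counted as detected on an array where its detection p, the chance of such a signal from background alone, was under 0.01. By that limit a signal on at least 1 array was found for 5 of the 7 genes, out of 10603 genes measured in all. Clec4a2 and Clec4e did not reach that level.

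Expression was measured in visceral white adipose tissue (VWAT) of C57BL/6JRj mice on 3 Illumina mouse bead arrays, 1 per group, each hybridized with RNA that the methods describe as pooled from 5 mice. HFD-Rapa mice ate a high-fat diet (HFD) with 60% of its energy as fat and were injected weekly with 2 mg/kg of rapamycin, which blocks the kinase mTOR, for 22 weeks. HFD-Ve mice ate the same diet and received the vehicle (Ve) on the same schedule, and the lean control mice, named chow here, received the vehicle according to the labels, which call their diet LFD, whereas the methods call it regular chow. The labels give an age of 28 weeks for all 3 groups, which is less than the times in the methods add up to (mice 6 weeks old at the start, 5 weeks of HFD before the injections and 22 weeks of injections), and the conflict could not be settled. In addition, the methods state that mice of both sexes were used without giving the sex of the pooled animals. The pooled RNA of each group was read once, so a difference below compares 1 array with 1 array, has no replicate check, and carries no p-value for the condition. As a sign of how far probes of 1 gene disagree, the standard deviation between probes of the same gene was 0.21 on the log2 scale for differences of the HFD arrays from each other (HFD-Rapa minus HFD-Ve) and 0.32 for HFD-Ve minus chow (3941 genes with several probes).

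As background, most of these receptors belong to 1 of 2 kinds. Clec4d (MCL), Clec4e (Mincle) and Clec4n (Dectin-2) lack a signalling motif of their own and signal through the chain Fcer1g, while Clec5a (MDL-1) uses Tyrobp (DAP12) and Hcst (DAP10). Fcer1g and Tyrobp recruit the kinase Syk, whereas Hcst recruits PI3-kinase, and Syk acts through Card9 to activate NF-kB and cytokine genes. Clec4a2 (DCIR) and Clec12a (MICL) instead carry an inhibitory motif in their tail, which recruits phosphatases such as Ptpn6. In obese fat, Mincle is known as a receptor of macrophages that surround dying adipocytes.

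Clec4d, the receptor that partners with Mincle at the cell surface, showed the widest spread of the measured receptors. Its raw signal was 1967 in HFD-Rapa, 673 in HFD-Ve and 114 in chow, and the probe was detected on all 3 (detection p of 0.006 on the chow array). The order of the arrays was therefore HFD-Rapa, HFD-Ve and chow, with the chow signal close to the limit of detection. After background correction and quantile normalization, which all differences and normalized signals below have had, Clec4d stood at log2 levels of 10.90, 9.06 and 5.63 in HFD-Rapa, HFD-Ve and chow. It was 3.60-fold higher in HFD-Rapa than HFD-Ve, a log2 difference of 1.85 that ranked 7 from the top among the 10603 genes. It was 10.8-fold higher in HFD-Ve than chow, rank 21, and 38.8-fold higher in HFD-Rapa than chow, rank 5. Over the 9 alternative ways of processing the arrays in which Clec4d was measured, the ratio lay between 3.25 and 3.60 for HFD-Rapa over HFD-Ve. Changing the detection limit or averaging probes could not move this value, since Clec4d has 1 kept probe. The alternatives that could move it gave log2 differences between 1.70 and 1.83. The ratio to chow moved more, between 4.76 and 12.6 for HFD-Ve over chow and between 15.6 and 41.1 for HFD-Rapa over chow.

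Clec4n, which binds fungal mannans, had a different pattern. Its raw signal was 351 in HFD-Rapa, 200.2 in HFD-Ve and 142 in chow, and it was detected on all 3. The HFD-Rapa array stood apart and the other two lay closer together. The log2 levels were 8.11 in HFD-Rapa, 6.76 in HFD-Ve and 6.33 in chow. Clec4n was 2.56-fold higher in HFD-Rapa than HFD-Ve, a log2 difference of 1.36 and rank 40. Over 9 alternative ways of processing the arrays this ratio lay between 1.92 and 2.56. The top of that range is the value given, which changes of detection limit or probe averaging could not move. The alternatives that could move it gave log2 differences between 0.94 and 1.35. Between HFD-Ve and chow it was 1.34-fold higher, a log2 difference of 0.42 and rank 2163, which is under the 1.5-fold (log2 0.58) used here to call a gene higher or lower. With the arrays scaled to equal medians that ratio was 1.56.

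Clec4a3, a relative of the inhibitory receptor Clec4a2, is represented by 2 probes that were kept. The brighter one had raw signals of 1188, 1031 and 341 on the HFD-Rapa, HFD-Ve and chow arrays. This probe separated both HFD arrays from chow more than it separated them from each other. It was 1.30-fold higher in HFD-Rapa than HFD-Ve (log2 difference 0.38, rank 1790) and 2.90-fold higher in HFD-Ve than chow (log2 difference 1.53, rank 323). The dimmer Clec4a3 probe had raw signals of 262, 211 and 96.5 in HFD-Rapa, HFD-Ve and chow and was not detected in chow, with a detection p of 0.049. Its log2 difference between HFD-Rapa and HFD-Ve was 0.66, so the probes of this gene lay on either side of 1.5-fold in that comparison.

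Clec5a, an activating receptor of monocytes, macrophages and neutrophils, was near background. Of its 4 probes 1 was kept, with raw signals of 130 in HFD-Rapa, 122 in HFD-Ve and 92.4 in chow and detection p of 0.003, 0.012 and 0.097. It was thus detected on the HFD-Rapa array alone. Against the lowest signal that counted as detected on the dimmer array, Clec5a was higher by at least 1.26-fold in HFD-Rapa than HFD-Ve and by at least 1.15-fold in HFD-Rapa than chow, where the measured log2 differences were 0.44 and 0.98. Because Clec5a was kept only through its signal on the HFD-Rapa array, the direction of these bounds was largely fixed by that filter and supports nothing. These bounds hold for this background correction only, since without it the ratio of HFD-Rapa to HFD-Ve was 1.12. No fold is given between HFD-Ve and chow, since neither array detected it. The 3 other Clec5a probes had raw signals between 81.3 and 113 over all arrays and were not detected.

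Clec12a, the inhibitory receptor for uric acid crystals, was also detected on the HFD-Rapa array alone. Raw signals were 124 in HFD-Rapa, 119 in HFD-Ve and 90.9 in chow, with detection p of 0.004, 0.014 and 0.121. The measured log2 difference was 0.36 for HFD-Rapa over HFD-Ve and 0.87 for HFD-Rapa over chow. As bounds these amount to at least 1.12-fold and at least 1.02-fold higher in HFD-Rapa with this background correction. Without it the ratio of HFD-Rapa to HFD-Ve was 1.09. Like those of Clec5a, the bounds of Clec12a had their direction largely fixed by the detection filter.

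Clec4e was not measured at the detection limit used. One of its 2 probes had raw signals of 115, 107 and 85.6 in HFD-Rapa, HFD-Ve and chow, with a detection p of 0.013 in HFD-Rapa. The other had 108, 109 and 87.5 in HFD-Rapa, HFD-Ve and chow. Mincle RNA was thus not detectable on these arrays at that limit, which does not show that it was absent. Clec4a2 was lower still against background, with raw signals of 81.5, 85.4 and 77.3 in HFD-Rapa, HFD-Ve and chow for 1 probe and 93.9, 94.0 and 84.6 on the same 3 arrays for the other, and detection p between 0.468 and 0.975.

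**Figure D1:**
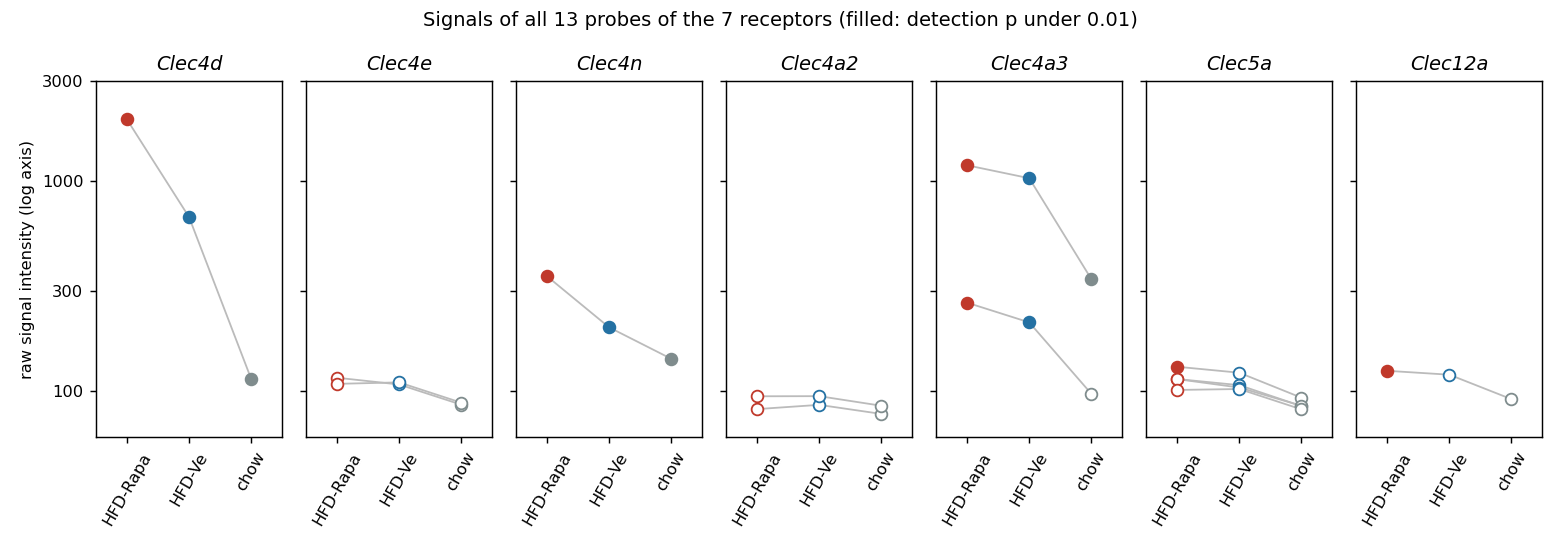
Raw signal intensity (log axis) of the 13 probes of the 7 receptors on the HFD-Rapa, HFD-Ve and chow arrays, 1 line per probe, with filled points where the detection p was under 0.01. Clec4d runs through 1967, 673 and 114, and the probes of Clec4e and Clec4a2 have open points on every array.

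Read over the 5 measured receptors, 2 (Clec4d and Clec4n) were higher by 1.5-fold or more in HFD-Rapa than HFD-Ve and none was lower. Of all genes measured, 8.55% were higher and 7.56% lower by that much. In HFD-Ve over chow, 2 receptors (Clec4d and Clec4a3) were higher and none lower, beside 15.1% of all genes higher and 11.7% lower. In HFD-Rapa over chow 5 of the 5 measured were higher, beside 20.5% of all genes higher and 19.5% lower. Without background correction that last count was 3. With genes taken at their bounds the counts were 2 in HFD-Rapa over HFD-Ve (7.91% of all genes), 2 in HFD-Ve over chow (12.8%) and 3 in HFD-Rapa over chow (17.9%). The median log2 difference of the 5 receptors was 0.44 for HFD-Rapa over HFD-Ve, 0.55 for HFD-Ve over chow and 1.78 for HFD-Rapa over chow, where the medians of all genes were 0.02, -0.05 and -0.04. The values 0.44 and 0.55 are those of Clec5a, which neither the HFD-Ve nor the chow array detected, so they describe a probe near background. At the bounds the receptors' median was 0.38 for HFD-Rapa over HFD-Ve and 0.42 for HFD-Ve over chow. Over the 3 receptors detected on all arrays (Clec4d, Clec4n and Clec4a3) it was 1.36 for HFD-Rapa over HFD-Ve and 1.53 for HFD-Ve over chow. With scaling to equal medians, 4 receptors passed 1.5-fold for HFD-Ve over chow. Clec5a and Clec12a were kept because of their signal on the HFD-Rapa array, so their direction was partly fixed by that filter and these counts support nothing about the group. The comparisons share arrays, so they are not independent of each other.

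**Figure D2:**
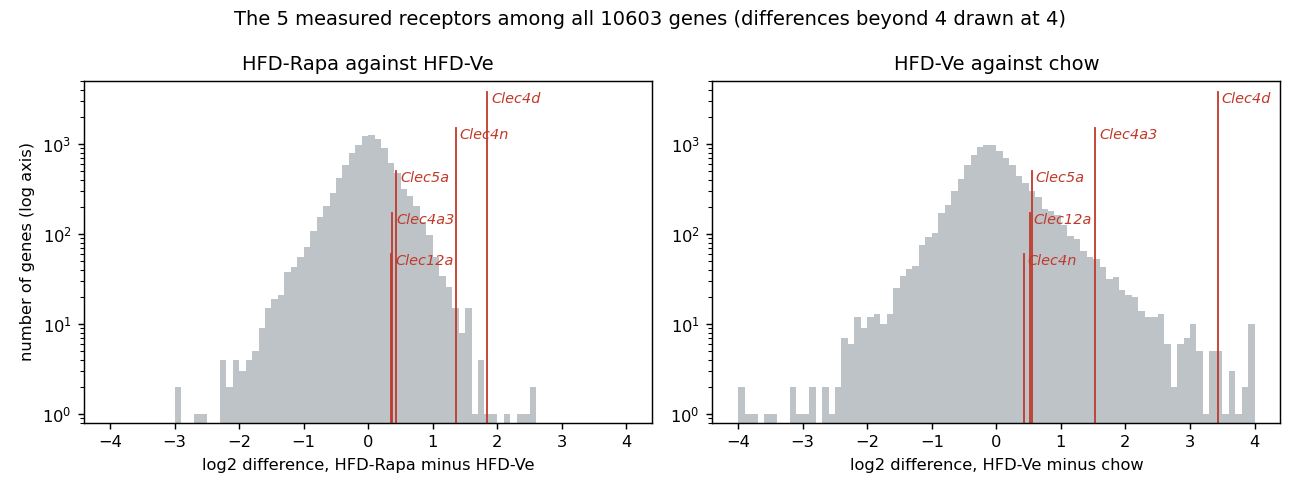
Histograms of the log2 difference of all 10603 genes (log axis of gene number, bins of 0.1) for HFD-Rapa minus HFD-Ve on the left and HFD-Ve minus chow on the right, with the 5 measured receptors as red lines whose height carries no value; Clec5a and Clec12a were not detected in HFD-Ve or chow. Clec4d lies at 1.85 and 3.43, and Clec4n at 1.36 and 0.42.

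In the mouse genome (GRCm38.p6, RefSeq) all 7 genes lie on chromosome 6. Along the chromosome, 5 of them in the order Clec4a3, Clec4a2, Clec4n, Clec4d and Clec4e, belong to a cluster of 9 protein-coding lectin genes that spans 368 kb, from Clec4a1 at chr6:122921848-122934619 to Clec4e at chr6:123281789-123289871. Clec4n (chr6:123229843-123247024), Clec4d (chr6:123262107-123275268) and Clec4e are direct neighbours. Clec5a (chr6:40574898-40585805) and Clec12a (chr6:129349783-129365303) lie elsewhere on the chromosome. Between the members in the cluster lie Clec4a4, Clec4b1 and Clec4b2. Clec4a4 was not detected and no probe was named for Clec4b2. Clec4b1, an activating receptor that pairs with Fcer1g, had normalized signals of 1748, 989 and 238 in HFD-Rapa, HFD-Ve and chow at its brightest probe. By that probe it was 1.77-fold higher in HFD-Rapa than HFD-Ve and 4.16-fold higher in HFD-Ve than chow. Its log2 difference of HFD-Rapa over HFD-Ve was 0.82 there and 0.64 and 0.48 at its other kept probes. The probes of Clec4b1 thus lay on either side of 1.5-fold in that comparison. Clec4a1, at the edge of the cluster, was 1.40-fold higher in HFD-Rapa than HFD-Ve and 1.90-fold higher in HFD-Ve than chow. The genes of the cluster therefore did not share 1 ratio, and the order of the receptors by HFD-Rapa over HFD-Ve differed from that by HFD-Ve over chow, with Clec4n second of the 5 measured cluster genes in HFD-Rapa over HFD-Ve and last in HFD-Ve over chow.

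**Figure D3:**
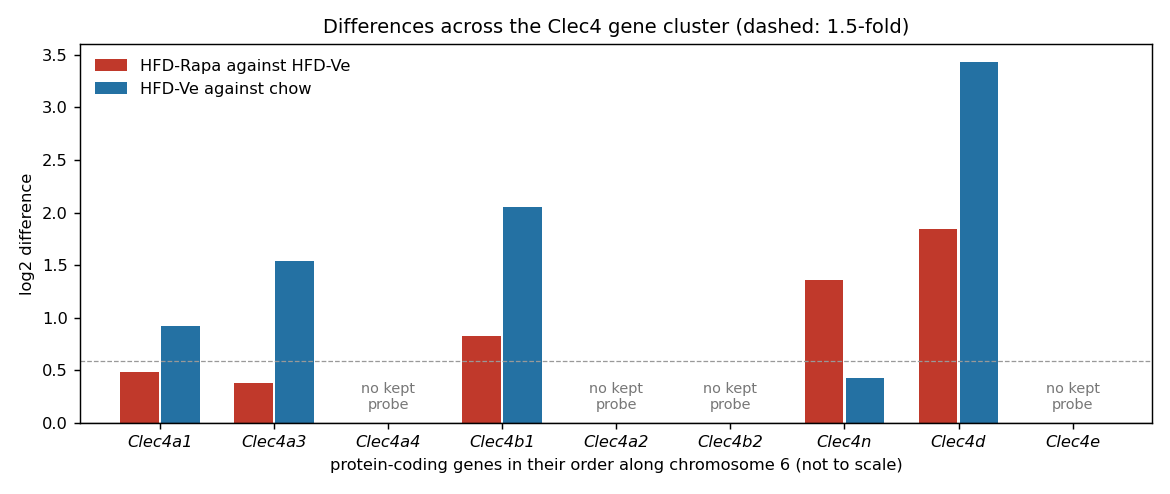
Log2 differences of the Clec4 cluster genes in their order along chromosome 6, for HFD-Rapa minus HFD-Ve (red) and HFD-Ve minus chow (blue). Clec4n is the only one of the 5 measured cluster genes whose red bar exceeds its blue bar (1.36 against 0.42), and 4 genes have no kept probe.

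The start-site upstream regions of Clec4d and Clec4e are shown because these neighbouring genes encode partner receptors. Clec4d was detected on all 3 arrays. Clec4e was near background and detected on none, which does not show that the genes are regulated differently. Sequences come from RefSeq on GRCm38.p6, 5′ to 3′ on the strand of the gene, Clec4d at chr6:123261857-123262106 on the plus strand and Clec4e at chr6:123289872-123290121 on the minus strand. Capitals mark the letters GAGGAA or, on the other strand, TTCCTC, the core of the site bound by PU.1, the lineage factor of myeloid cells.
Clec4d: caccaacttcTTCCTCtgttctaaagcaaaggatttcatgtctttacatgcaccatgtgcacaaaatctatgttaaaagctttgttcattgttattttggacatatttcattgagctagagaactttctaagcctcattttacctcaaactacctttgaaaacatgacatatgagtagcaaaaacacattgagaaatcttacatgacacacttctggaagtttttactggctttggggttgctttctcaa
Clec4e: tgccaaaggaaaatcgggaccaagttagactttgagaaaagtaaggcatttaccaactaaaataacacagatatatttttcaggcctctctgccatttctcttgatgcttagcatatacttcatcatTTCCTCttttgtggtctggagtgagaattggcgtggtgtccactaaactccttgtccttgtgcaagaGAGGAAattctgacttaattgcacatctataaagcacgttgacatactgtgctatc
The search also covered 50 bases after the start site, on both strands, in the 6 of 7 members with a promoter in the table (Clec4n had none). GAGGAA was found in 4 of the 6, with 3 matches in Clec4d (first base at -240, 8 and 40 from the start), 2 in Clec4e (-123 and -56), 2 in Clec5a and 2 in Clec12a. Of 27025 promoters of the same length, 28.3% held at least 1 match and 4.84% held 2 or more. Clec4a3 and Clec4a2 held none. The C/EBP motif TTGCNNAA was found in 2 members (10.8% of all promoters) and the AP-1 motif TGANTCA in 2 (7.93%). The NF-kB motif was found in none of them (1.62%). No match overlapped one of another motif. A match is a description of letters, and Clec5a, with 2 PU.1 cores, was near background on the arrays, as Clec4e was.

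Other C-type lectin genes of myeloid cells differed in both directions. Of 34 listed, 21 were measured. In HFD-Rapa 4 were higher by 1.5-fold or more and 2 lower than in HFD-Ve (3 and 2 at bounds), with a median of 0.17 (0.01 at bounds). In HFD-Ve 6 were higher and 7 lower than in chow. Of all genes measured, 8.55% were higher (7.91% at bounds) and 7.56% lower in HFD-Rapa than HFD-Ve. In HFD-Ve over chow, 15.1% were higher and 11.7% lower. The list counts that follow are to be read beside these same shares. Clec7a (Dectin-1, the receptor for beta-glucan), with normalized signals of 2548, 1263 and 118 in HFD-Rapa, HFD-Ve and chow, was 2.02-fold higher in HFD-Rapa than HFD-Ve and 10.7-fold higher in HFD-Ve than chow. These are log2 differences of 1.01 and 3.42, and the dimmer kept probe of Clec7a gave 0.68 and 2.72. Cd72, better known from B cells, had 1273, 688 and 67.7 in HFD-Rapa, HFD-Ve and chow, with ratios of 1.85 for HFD-Rapa over HFD-Ve and 10.2 for HFD-Ve over chow. Both thus followed the order HFD-Rapa, HFD-Ve and chow, as Clec4d did. The 6 measured genes of the DC-SIGN family were lower in HFD-Ve than chow, by 1.68-fold (Cd209g) to 2.85-fold (Cd209b), and 2 of them were also lower by 1.5-fold or more in HFD-Rapa than HFD-Ve. Cd209b (SIGN-R1), known from marginal zone macrophages of the spleen, had normalized signals of 93.8, 286 and 816 in HFD-Rapa, HFD-Ve and chow and was 3.05-fold lower in HFD-Rapa than HFD-Ve. That is a log2 difference of -1.61, and the other kept probes of Cd209b gave -1.45 and -1.11. Cd209d was 1.93-fold lower in HFD-Rapa than HFD-Ve, with signals of 178, 343 and 599 in HFD-Rapa, HFD-Ve and chow. Mrc1, the mannose receptor, was 1.23-fold higher in HFD-Rapa than HFD-Ve and 1.71-fold higher in HFD-Ve than chow, and Clec10a differed by 1.04-fold between the HFD arrays.

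**Figure D4:**
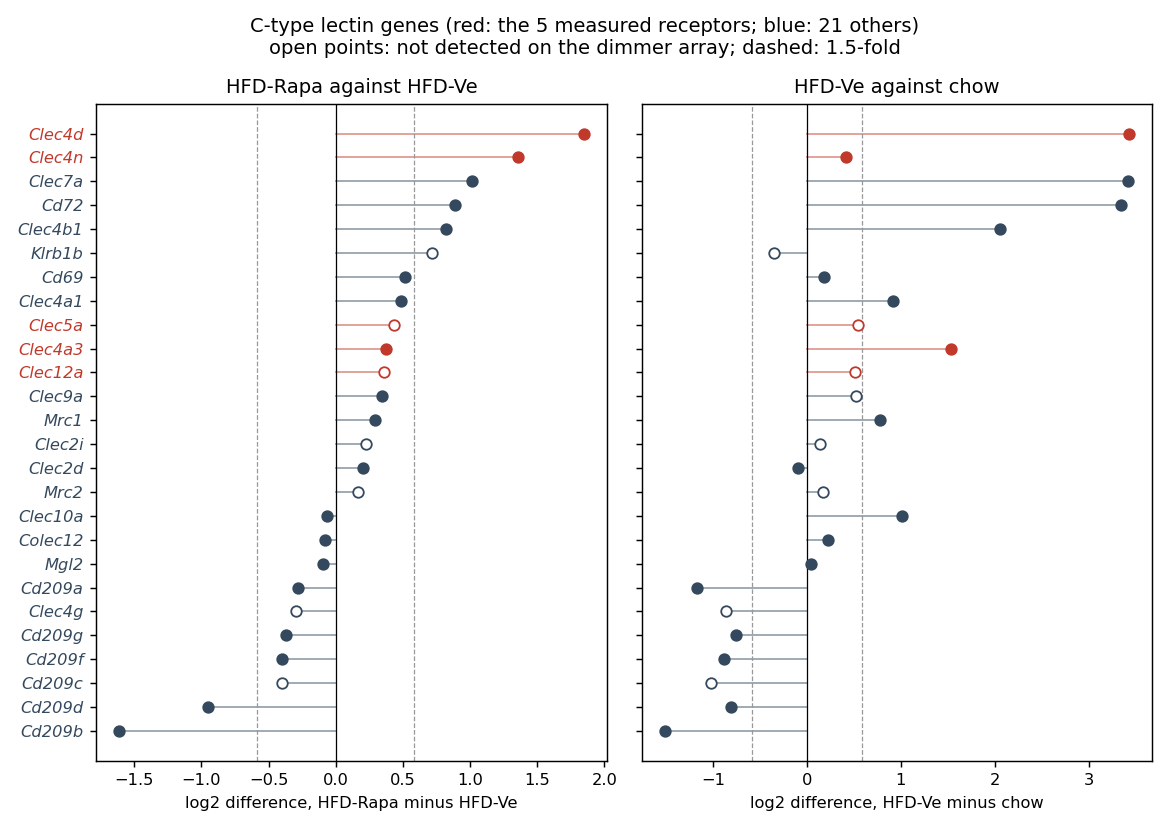
Log2 differences of 26 lectin genes for HFD-Rapa minus HFD-Ve (left) and HFD-Ve minus chow (right), the 5 measured receptors in red and the 21 others in blue, open points where the dimmer array did not detect the gene, dashed lines at 1.5-fold. Clec4d (1.85) is at the top and Cd209b (-1.61) at the bottom of the left panel.

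The signalling partners were measured as a separate list of 5 genes, of which Card9 was not detected. Fcer1g, the chain that Clec4d and Clec4n need, had normalized signals of 13272, 9397 and 2953 in HFD-Rapa, HFD-Ve and chow, a log2 difference of 0.50 between HFD-Rapa and HFD-Ve and 1.67 between HFD-Ve and chow. Tyrobp had 5622, 2914 and 470 in HFD-Rapa, HFD-Ve and chow, with log2 differences of 0.95 for HFD-Rapa over HFD-Ve and 2.63 for HFD-Ve over chow. Hcst, with signals of 478, 282 and 145 in HFD-Rapa, HFD-Ve and chow, differed by log2 0.76 for HFD-Rapa over HFD-Ve and 0.96 for HFD-Ve over chow. Syk, the kinase recruited by Fcer1g and Tyrobp, had 173, 95.1 and 32.1 in HFD-Rapa, HFD-Ve and chow and was not detected in chow, so its ratio of HFD-Ve to chow is at least 2.13. Tyrobp, Hcst and Syk were past 1.5-fold between HFD-Rapa and HFD-Ve, and Fcer1g was at 1.41-fold. All 4 were higher in HFD-Ve than chow. The median of these 4 genes was 0.81 for HFD-Rapa over HFD-Ve and 1.62 for HFD-Ve over chow (1.38 at bounds).

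Downstream, 18 of 25 listed signalling genes were measured, 7 higher and none lower in HFD-Rapa than HFD-Ve (median 0.32), and 11 higher and none lower in HFD-Ve than chow (median 0.82). Lat2, an adaptor of myeloid cells, was 1.96-fold higher in HFD-Rapa than HFD-Ve and 7.65-fold higher in HFD-Ve than chow. The phospholipase Plcg2 was 1.92-fold higher in HFD-Rapa than HFD-Ve and the exchange factor Vav1 1.77-fold. Of 11 phosphatases and other brakes, 9 were measured, 3 higher and none lower in HFD-Rapa than HFD-Ve (median 0.47) and 7 higher in HFD-Ve than chow (6 at bounds, median 0.75). The adaptor Dok3 was 2.12-fold higher in HFD-Rapa than HFD-Ve, and Ptpn6, the phosphatase recruited by Clec12a, was 1.72-fold higher. Of 21 genes that Syk and Card9 are known to induce, 12 were measured. In HFD-Rapa 8 were higher and none lower than in HFD-Ve (7 at bounds, median 0.71, or 0.63 at bounds). In HFD-Ve 11 were higher than in chow (8 at bounds, median 1.37, or 1.36 at bounds). All 12 were detected in HFD-Rapa, but 9 in HFD-Ve and 4 in chow, so the detection filter partly fixed the direction of some. The IL-1 antagonist Il1rn was 2.03-fold higher in HFD-Rapa than HFD-Ve, and the chemokine Ccl4 1.89-fold. The chemokine Ccl2 differed by 1.22-fold between the HFD arrays and was at least 9.54-fold higher in HFD-Ve than chow. Il6, Il1a, Il23a, Csf2, Csf3, Nos2, Ptgs2 and Nlrp3 were not detected, and no probe was named for Il12b. Lack of detection on these arrays does not show that the RNA was absent. By quantitative PCR of VWAT from individual mice, the authors reported Il6, Il1a, Il1b and Mcp-1 (Ccl2) higher in rapamycin than vehicle mice. They reported no discernible effect on Tnf, Il4 and Il10.

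**Figure D5:**
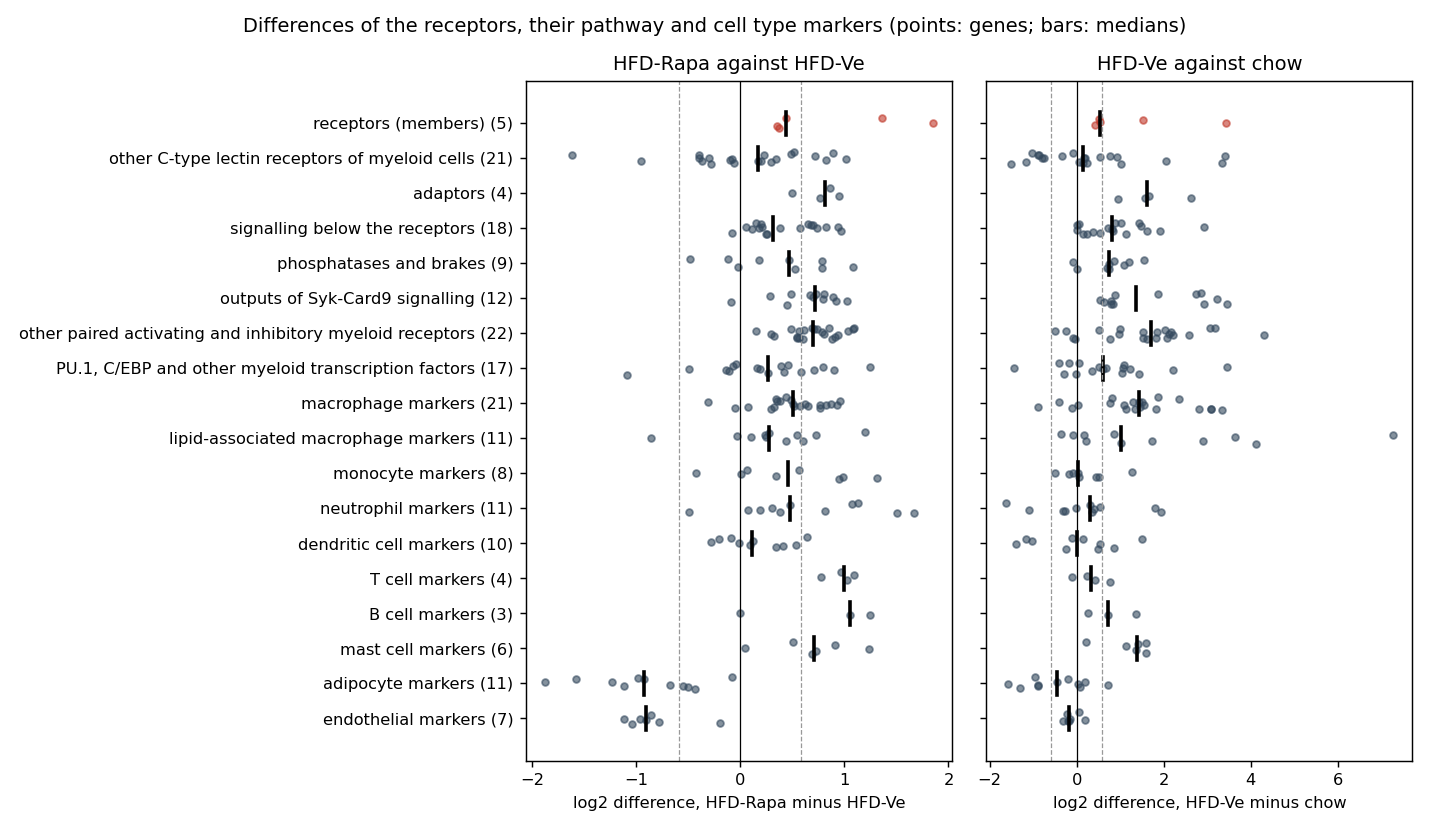
Log2 differences for the 5 measured receptors (red), for pathway lists and for cell type marker lists (blue), each point 1 gene and each bar the list's median, with the number of measured genes in parentheses, HFD-Rapa minus HFD-Ve on the left and HFD-Ve minus chow on the right. The adipocyte markers have medians of -0.92 and -0.46, and the receptors' bars lie at Clec5a, which was not detected in HFD-Ve or chow.

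Because RNA came from whole VWAT, fewer cells of a type and less RNA per cell cannot be told apart. Adipocyte markers were abundant on every array, with summed normalized signals of 61197, 77475 and 73217 in HFD-Rapa, HFD-Ve and chow, so RNA of the cells that define this tissue was present. Of 11 measured adipocyte markers, 7 were lower by 1.5-fold or more in HFD-Rapa than HFD-Ve, and of 7 endothelial markers 6 were lower. Macrophage markers summed to 122936, 88454 and 30736 in HFD-Rapa, HFD-Ve and chow. Of 21 measured, 8 were higher and none lower in HFD-Rapa than HFD-Ve, and 17 higher and 1 lower in HFD-Ve than chow (Cd68 and Cybb were not measured). Their median was 0.51 for HFD-Rapa over HFD-Ve, 1.43 for HFD-Ve over chow and 1.94 for HFD-Rapa over chow.

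Set beside these macrophage markers, Clec4d lay above all 21 in each of the 3 comparisons, by 1.34 log2 units above their median in HFD-Rapa over HFD-Ve and by 3.34 in HFD-Rapa over chow. Clec4n lay above all 21 in HFD-Rapa over HFD-Ve, where the highest marker was Ms4a7 with 0.96, but above 4 of the 21 in HFD-Ve over chow. Clec4a3 lay above 7 of the 21 in HFD-Rapa over HFD-Ve and above 13 in HFD-Ve over chow. Clec5a and Clec12a, not detected on the HFD-Ve array, were given no place. The places were read with the background correction used here only. Without it the log2 difference of Clec4n for HFD-Rapa over HFD-Ve was 0.94. These are places in a list and not tests, and the part that the number of macrophages had in them was not tested.

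Neutrophil markers bear on the receptors too, since neutrophils carry Clec4d, Clec5a and Clec12a. Their sum was 2359, 1669 and 1139 in HFD-Rapa, HFD-Ve and chow for 11 of 16 markers measured, while Ly6g, Cxcr2, Mmp8, Mpo and Stfa1 were not. Of the 11, 5 were higher in HFD-Rapa than HFD-Ve (3 at bounds). All 11 were detected in HFD-Rapa but only 6 in HFD-Ve, and Ltf, Retnlg and Camp were detected in HFD-Rapa alone. Such markers were kept because of their signal on the HFD-Rapa array, so their direction was partly fixed by that filter. The count and the sum therefore support nothing about neutrophils. S100a9 had normalized signals of 259, 81.3 and 66.0 in HFD-Rapa, HFD-Ve and chow and was 3.18-fold higher in HFD-Rapa than HFD-Ve, whereas its partner S100a8 had 861, 698 and 182 on these arrays, a ratio of 1.23 for HFD-Rapa over HFD-Ve. Monocyte markers summed to 4538, 4281 and 4094 in HFD-Rapa, HFD-Ve and chow, with 8 of 12 measured (not Ly6c2). In HFD-Rapa over HFD-Ve, 3 were higher and none lower by 1.5-fold, and 7 of the 8 had a positive log2 difference. Their median was 0.45 (0.21 at bounds). Cx3cr1 was 2.49-fold higher in HFD-Rapa than HFD-Ve, Plac8 differed by log2 0.006, and Ace was 1.34-fold lower. Ccr2, which was 1 of the 3 called higher, and Treml4 were detected in HFD-Rapa alone, so their direction was partly fixed by the detection filter. The monocyte count and median therefore support nothing about monocytes. Of 11 lipid-associated macrophage markers, 3 were higher and 1 lower in HFD-Rapa than HFD-Ve, with sums of 104808, 86811 and 61729 in HFD-Rapa, HFD-Ve and chow. Dendritic cell markers summed to 2895, 2628 and 1715 in HFD-Rapa, HFD-Ve and chow, with 1 of 10 measured markers higher in HFD-Rapa than HFD-Ve (0 at bounds) and Flt3 and Xcr1 not measured. The part of each of these cells in the receptors' differences was not tested. By flow cytometry of VWAT, the authors reported a higher percentage of granulocytic myeloid-derived suppressor cells, which carry Ly6G, with rapamycin than vehicle. The percentage of the monocytic kind was lower, with unchanged absolute numbers.

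By the distance between their 2 log2 differences (HFD-Rapa minus HFD-Ve and HFD-Ve minus chow), the genes nearest to Clec4d among the 9335 detected on all 3 arrays were Glipr1 (distance 0.61), Clec7a (0.84), Lilrb4a (0.85), Bcl2a1d (0.85) and Bcl2a1b (0.92). Each gene entered with its brightest kept probe, and the dimmer Clec7a probe, with log2 differences of 0.68 and 2.72, lay farther from Clec4d. Glipr1 was 2.37-fold higher in HFD-Rapa than HFD-Ve and 10.3-fold higher in HFD-Ve than chow. Bcl2a1b and Bcl2a1d are near-identical copies that the probes may not separate. Likeness over 3 arrays, each a single pool, is a description of those arrays.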

How the data were processed

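RNA of VWAT, pooled from 5 mice per group according to the methods, was hybridized to 1 array each for HFD-Rapa, HFD-Ve and chow. The authors deposited the raw signal intensity of 45281 probes as exported from GenomeStudio, without normalization, and beside each a detection p-value. A second table that the authors deposited holds processed intensity values, whose normalization is not given in the sources used here. The arrays had 17966 (39.7%), 17561 (38.8%) and 16951 (37.4%) probes with a detection p under 0.01 in HFD-Rapa, HFD-Ve and chow, and precision is limited by how few arrays there are.

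Raw intensities were corrected for background inferred from the detection p (limma 3.58.1 in R 4.3.3, offset 16), quantile normalized and set on the log2 scale. Probes detected on at least 1 array were kept (18954); where a gene had several, its brightest kept probe was used. Symbols came from the platform annotation (34885 probes with 1 gene, 18 with several and left unnamed, 10378 not listed), and 34807 were found in the RefSeq table, with no symbol to update. A gene counted as higher or lower at 1.5-fold; where the dimmer array did not detect it, the bound was set against the lowest detected signal of that array. With 1 array per group no test was made. The procedure was tested on simulated data.

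The 7 receptors and the 17 lists were chosen with earlier results of these data known. Named genes were the members, the adaptors, up to 4 genes per list that differed most for HFD-Rapa over HFD-Ve and up to 2 more for HFD-Ve over chow, genes nearest to Clec4d in pattern (those nearest to the receptors' median are not given, since that median is a probe near background), neighbours on the chromosome and marker genes; Mrc1, Clec10a, Cd209g and Clec4a1 were named after their values were seen. Alternatives were the background correction and its offset, scaling, the authors' values, the detection limit, the mean of probes and a 2-fold threshold.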

Additional observations from a re-analysis of the deposited data

How the results depend on the processing

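None of 129 member values and 459 list values had a called difference that reversed under the alternatives tried. The 60 counts over all genes were compared by size only, so they could not reverse. For a receptor with 1 kept probe, averaging probes could not move the value. The measured receptors kept their direction in each alternative, but that of Clec5a and Clec12a was partly fixed by the detection filter. The median of the other lectins for HFD-Rapa over HFD-Ve, 0.17, was -0.06 with detection on all 3 arrays and -0.01 with no detection filter, and small medians of the dendritic, monocyte and endothelial markers also changed sign. By more than the spread between probes, 26 member values and 63 list values moved, and 17 counts moved by over 1.5 times. The receptors' median for HFD-Rapa over HFD-Ve was 1.36 when detection was required on all 3 arrays, which leaves 3 receptors. For HFD-Ve over chow the median was 0.22 from the authors' processed values and 1.53 with detection on all 3 arrays, and the count at 1.5-fold was 4 with scaling to equal medians. For HFD-Rapa over chow the median was 1.17 without background correction, 1.16 from the authors' values, 1.38 with a detection p under 0.05 and 0.98 with no detection filter, and the count at 1.5-fold was 3 without background correction, with an offset of 50, from the authors' values, with detection on all 3 arrays and at a 2-fold threshold. The cause was not tested, except that fewer genes enter with the stricter filter and more with the looser ones. Scaling to equal medians moved the median of all genes by -0.11 for HFD-Rapa over HFD-Ve, 0.21 for HFD-Ve over chow and 0.10 for HFD-Rapa over chow. Relative to it, Clec4d differed by 1.79 for HFD-Rapa over HFD-Ve and 3.50 for HFD-Ve over chow.

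No paired analysis was possible because each group has 1 array. Signal over background limits Clec5a, Clec12a, Clec4e and Clec4a2, and the pools hide the spread between mice.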

Other observations

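Other paired receptors of myeloid cells, outside the lectin family, were measured for 22 of 33 listed genes. Of these, 14 were higher by 1.5-fold or more in HFD-Rapa than HFD-Ve and none was lower (median 0.70). In HFD-Ve 17 were higher than in chow (15 at bounds, median 1.72, or 1.23 at bounds). Cd300c2 was 2.14-fold, Sirpb1a 2.12-fold and Lilrb4a 2.05-fold higher in HFD-Rapa than HFD-Ve. Pilra, an inhibitory receptor, was 1.92-fold higher in HFD-Rapa than HFD-Ve and, with a log2 difference of -0.25, under 1.5-fold between HFD-Ve and chow. Its normalized signals were 278, 145 and 172 in HFD-Rapa, HFD-Ve and chow, an order in which, as for Clec4n, the HFD-Rapa array stood apart. Trem2, a lipid receptor that signals through Tyrobp, was 1.80-fold higher in HFD-Rapa than HFD-Ve and 19.8-fold higher in HFD-Ve than chow.

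Of 21 transcription factors of myeloid cells 17 were measured, 5 higher and 1 lower in HFD-Rapa than HFD-Ve (4 and 1 at bounds, median 0.26, or 0.16 at bounds) and 9 higher and 1 lower in HFD-Ve than chow (7 and 1 at bounds, median 0.59, or 0.46 at bounds). Mitf was 2.38-fold higher and Cebpa, which adipocytes also use, 2.12-fold lower in HFD-Rapa than HFD-Ve. Atf3, a stress-induced factor, was 1.86-fold higher in HFD-Rapa than HFD-Ve, with a log2 difference of 3.46 for HFD-Ve over chow. Of 4 T cell markers measured out of 10 (Cd3d, Cd3e, Cd3g and Thy1), all 4 were higher in HFD-Rapa than HFD-Ve, of 3 B cell markers 2, and of 6 mast cell markers 4. The T cell markers Cd4, Cd8a, Lck, Trac, Cd5 and Cd28 were not measured. By quantitative PCR of VWAT, the authors reported no difference in Cd3e or the B cell gene Cd20 between rapamycin and vehicle mice. That PCR was run on individual mice and each array on a pool, so the measures are unlike. They reported Cd4 lower and Cd8 higher with rapamycin. By flow cytometry of VWAT they reported a lower percentage of CD4 T cells, with comparable numbers per fat mass, and more regulatory T cells.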
